A study of Saccharomyces cerevisiae with 24 samples.

Results

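The 5′ external transcribed spacer (5′ ETS) opens the yeast ribosomal precursor RDN37, and its downstream stretch was taken from the first binding site of the U3 small nucleolar RNA to the start of 18S. The members were all A and C nucleotides at positions 281 to 700 of the RDN37 transcript, counted from its first base, whatever their rates. They were 195 nucleotides (124 A and 71 C) of the 3131 A and C of the whole transcript. The interval spans 420 nt with a GC content of 40.5%, and ends at A1, the cleavage site that frees the 5′ end of 18S. It was divided into the first U3 pairing site (281 to 291, 1 member), the stretch between the U3 sites (292 to 469, 91 members), the second U3 site (470 to 480, 6 members), the stretch up to the A0 cleavage site (481 to 610, 61 members) and the stretch from A0 to A1 (611 to 700, 36 members). The bounds of the second site and of A0 are approximate, and the first site was given the length of the second.

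U3 is a box C/D small nucleolar RNA that does not guide a methylation but pairs with the 5′ ETS and with the 18S part of the precursor, and so holds the small-subunit processome on the nascent transcript. The processome folds the 5′ ETS into helices that are cut at A0 and A1 and then degraded, and loss of U3 or of its pairing blocks these cuts. Utp9, the protein used for purification here, belongs to the UTP-A complex, which binds the 5′ ETS first, and Rrp5 is an RNA-binding protein needed for the maturation of both ribosomal subunits.

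The measurement was DMS-MaPseq. Dimethyl sulfate (DMS) methylates A and C at positions that base pairs or proteins do not shield, the reverse transcriptase TGIRT-III misreads the methylated base, and the rate given here is the percentage of reads with a mutation at a nucleotide. Pre-40S particles were pulled down through Utp9-TAP out of yeast carrying either wild-type Rrp5 (WT) or Rrp5_mL (mL), and both carried H375A, for which the labels name no protein, as they explain no mL. Mature ribosomes came from BY4741 and from BY4741 with Δsnr31 and Δsnr54, the lack of a pair of small nucleolar RNA genes. Each of these 4 preparations was treated with 1% DMS for 5 min at 30 °C after purification, outside the cell, or left untreated, with 3 libraries per group, called biological replicates in the series design, and 24 libraries in all. The mature libraries held on average 5 to 27 reads per nucleotide of the interval, too few for rates, so only their depth was used.

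In the pre-40S libraries the mean depth over the interval was 414 to 1084 reads per nucleotide with DMS and 494 to 879 without it, except for 77.1 in WT untreated replicate 1. At the median depth of the members a count of 0 allowed a rate of up to 0.315% to 0.796% in the treated libraries, up to 0.332% to 0.596% in 5 of the untreated ones and up to 3.80% in WT untreated replicate 1. These limits, taken as 3 counts, cover counting error only. The labelled particle could be checked in part by its spacers: the interval was covered at 1.01 to 1.86 times the 18S depth in treated pre-40S libraries and at 0.0228% to 0.0761% of it in treated mature ones. In the treated pre-40S libraries ITS2 stood at 0.2825 to 0.3807 times the 18S depth and 25S at 0.652 to 0.793 times. These depths thus show precursor RNA, but not a particle free of large-subunit RNA. WT untreated replicate 2 stood apart, since its reads piled up at the start of 18S.

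The stretches on which the results turn are printed as the deposited profiles spell them, 5′ to 3′, all of them transcribed from the rDNA on chromosome XII. For the U3 sites (shown at 281 to 310 and 465 to 490) capitals mark the pairing site, and for A0 (590 to 630) the capital marks nucleotide 610. The windows around A405 (390 to 420), C454 (439 to 469) and A557 (542 to 572) hold 3 of the most reactive nucleotides, with members of at least 5% in both strains in capitals. The last stretch before A1 (632 to 700) is shown for the contrast between its run of A and its single reactive A671, both in capitals.
The first U3 site: GGAUUUGGUGGauuacuagcuaauagcaau
The second U3 site: gaaacUCAAAGAGUGCuaugguaugg
A0: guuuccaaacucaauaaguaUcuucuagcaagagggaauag
Around A405: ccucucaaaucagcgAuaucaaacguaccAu
Around C454: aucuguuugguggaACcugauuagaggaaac
Around A557: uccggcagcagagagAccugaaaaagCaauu
Before A1: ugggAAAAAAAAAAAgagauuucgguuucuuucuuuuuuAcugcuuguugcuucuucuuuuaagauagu

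Reactivity in the interval was carried by few nucleotides. With DMS the median member was mutated in 0.935% of reads in WT and in 0.766% in mL, 64 of 195 members stayed under 0.5% in both strains, and 18 reached 5% in both. Of these 18, 15 were A and 3 were C, 11 lay before the second U3 site and 1 lay past A0. The same nucleotides stood out in both strains: 8 nucleotides were among the 10 most reactive in each, and over the 195 members the treated means of WT and mL had a Pearson correlation of 0.968 and a Spearman correlation of 0.940. These correlations describe nucleotides of 1 transcript that share its bases and the libraries' depths. Between replicate libraries the rate of a member with at least 1% in both strains varied with a median coefficient of variation of 19.3% in WT and 18.9% in mL, over 82 members.

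**Figure D1:**
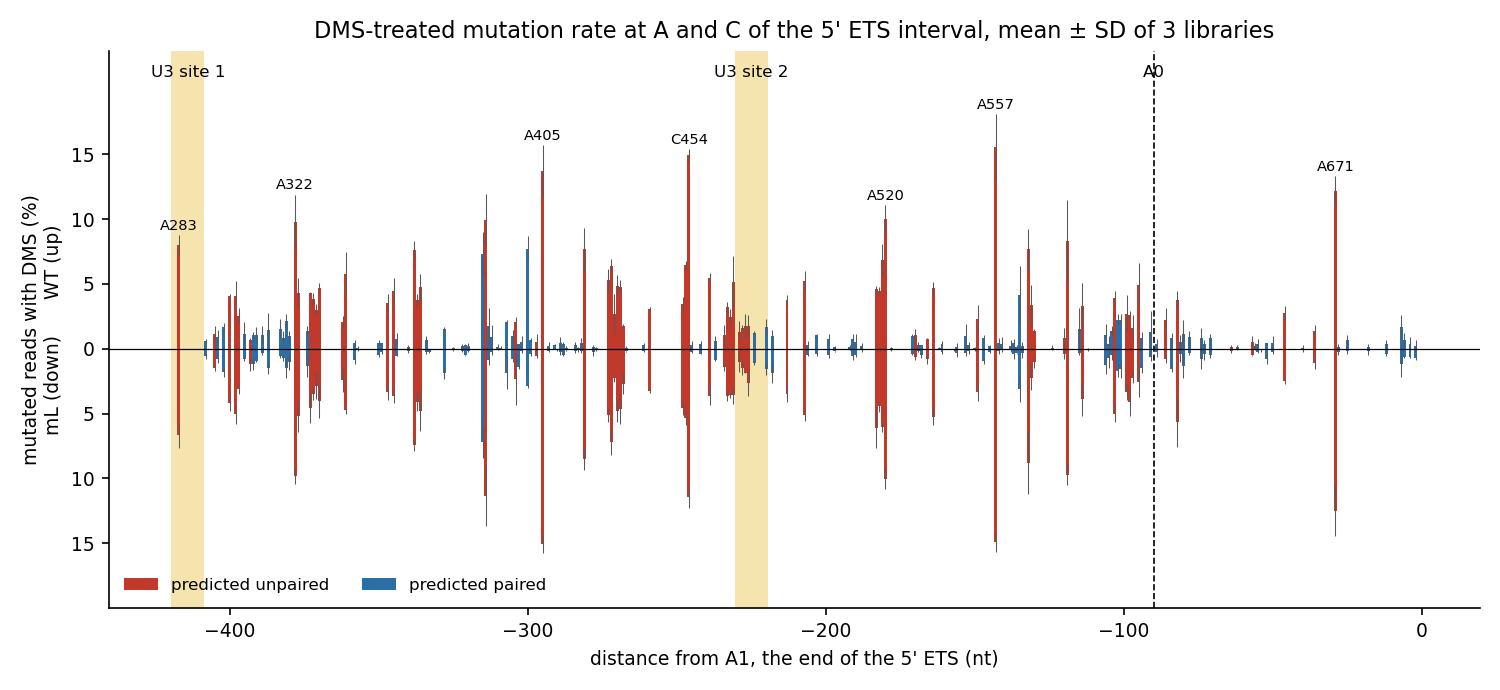
Mean treated rate (percent of reads mutated) of each A and C against its distance from A1 in nt, WT upward and mL downward, with SD over 3 libraries as thin lines, coloured by pairing in a predicted fold. The U3 sites are shaded and A0 is dashed. The tallest bars, such as A405, C454, A557 and A671, stand at the same places in both strains.

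The most reactive nucleotides were A557, 53 nt before A0, in WT and A405 in mL. The treated rate of A557 was 15.5%, 13.0% and 18.1% in the WT libraries and 14.1%, 15.1% and 15.6% in the mL libraries, against at most 0.174% in any untreated library. The 2 strains overlapped, and every treated library lay far above every untreated one. A405 had 12.1%, 13.0% and 16.0% in WT and 15.8%, 14.4% and 15.04% in mL. Its untreated rate was 1.33% in WT replicate 1, where 75 reads covered it, and at most 0.117% elsewhere, and its strains overlapped too. C454 is described with the strain comparison. The next in order by the WT mean were A671, A520, A386, A322 and A581, at means of 12.2%, 9.98%, 9.97%, 9.81% and 8.35% in WT and of 12.5%, 10.02%, 11.4%, 9.81% and 9.73% in mL. The library values of A520, A386, A322 and A581 overlapped in each strain, so the order among these 4 is not resolved. A283 and C400 completed the 10 highest of WT. C568 and A419, at means of 8.79% and 8.54%, completed those of mL.

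The U3 sites differed from one another in level. The first site is written with G and U apart from A283, its only member. A283 had 7.83%, 8.86% and 7.38% in treated WT libraries and 7.65%, 5.73% and 6.70% in mL, against 0% to 0.150% in the untreated ones. It was thus among the 10 most reactive members of WT, and its strains overlapped. In the second U3 site all 6 members, C471, A472, A473, A474, A476 and C480, were moderate and even: their treated means ran from 1.202% to 1.74% in WT and from 1.02% to 2.67% in mL. A474 had the highest of these means in both strains, with 2.70%, 1.47% and 1.05% in WT libraries and 3.71%, 2.50% and 1.79% in mL, where the strains overlapped. All 6, like A283, were called higher with DMS by edgeR in WT (adjusted p at most 0.000899) and in mL (adjusted p at most 0.00166). Over all A and C tested in the transcript 84.3% were called higher in WT and 82.7% in mL, and the 7 calls are to be read against these shares. The 4 members in the 5 nt just before the site were more reactive than the site itself in mL, with a median of 3.58% against 1.52% (2.83% against 1.66% in WT), given here without a test.

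At A0 the members were of middling reactivity. The 12 members within 10 nt of nucleotide 610 had treated means from 0.376% to 4.94% in WT and from 0.232% to 5.65% in mL, with medians of 1.44% and 1.51%. C618 and A605 marked the upper end. C618 had 3.70%, 3.12% and 4.46% in WT and 5.39%, 3.85% and 7.72% in mL, against at most 0.355% without DMS. A605 had 6.83%, 4.05% and 3.93% in WT and 2.78%, 3.60% and 1.24% in mL, but it was also mutated in 0% to 6.02% of untreated reads. C618 thus rests on DMS and overlaps between strains, while A605 cannot be read as a DMS signal. C601, A602 and A603 lay at WT means of 2.72%, 2.62% and 1.596%, with mL means of 3.35%, 4.08% and 2.24%. A609 and C611, which flank the stated cut, had 0.376% to 1.28% in WT and 0.232% to 0.677% in mL, and the remaining A606, C614, A616, A619 and A620 had treated means of at most 2.23%. The depth without DMS in WT untreated replicate 1 was under the minimum of 50 reads here, so the DMS effect within 20 nt of A0 could be tested in mL alone, where 12 of the 14 tested members were called higher, a share near the 82.7% of all tested sites.

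Between A0 and A1 most members were barely mutated, and A671 was the exception. The 36 members had a median of 0.385% in WT and 0.372% in mL, the lowest of the segments that hold more than 1 member, and A671 was the only one to reach 5% in both strains. It had 13.5%, 11.8% and 11.4% in treated WT libraries and 14.5%, 10.6% and 12.4% in mL, against at most 0.352% without DMS, so that the strains overlapped. The longest run of A in the interval, 11 nucleotides from 636 to 646, was at the other end: in the treated libraries 12 of 9753 base reads were mutated there in WT and 17 of 18829 in mL, and 6 of the 11 had no mutation in any treated library of WT, as did 6 in mL. The sources used here do not give how errors in such a run are counted, and its part in these rates was not tested.

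Reactivity followed a fold predicted from sequence alone. RNAfold was run on the 700 nt of the 5′ ETS at 30 °C, without U3 and without proteins, and gave a minimum free energy of -281.11 kcal/mol with 123 members paired and 72 unpaired. Unpaired A had a median treated rate of 3.81% in WT and 3.97% in mL, and paired A 0.489% and 0.472%. Unpaired C had 3.43% and 3.47%, and paired C 0.276% and 0.212%. Of the 18 members of at least 5% in both strains 17 were predicted unpaired, A385 being the other one. Predicted unpaired members under 0.3% in WT were 1 (A636, at the head of the A run), and predicted paired members of at least 4% in WT were 3: A385, C400 and A565. Of these C400 and A565 were also mutated without DMS, at 3.89% and 2.89% over the 6 untreated libraries. In the A run 9 of 11 members were predicted paired, with the U-rich stretch that follows, and A671 is the unpaired base next to its paired bases. In the second U3 site C471 to A474 were predicted unpaired and A476 and C480 paired with bases of the first 280 nt. Pairs are from a single predicted structure, members near each other share helices, and no test was made over them.

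**Figure D2:**
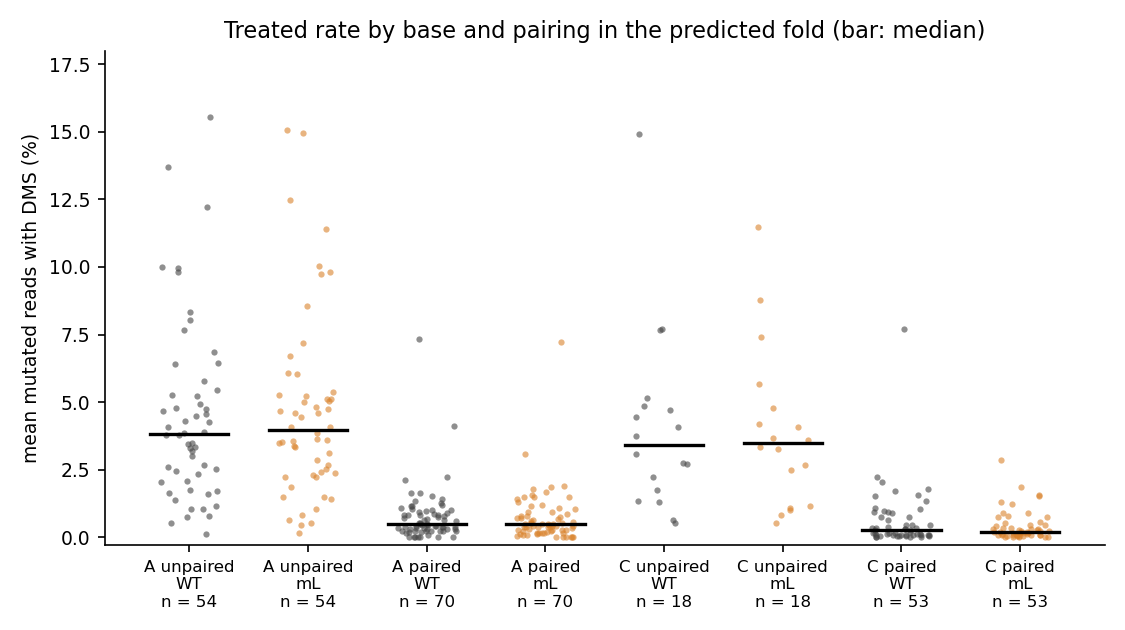
Mean treated rate of each member (percent of reads mutated), split by base, by pairing in the predicted fold and by strain, with the median as a bar. Unpaired A and C have medians from 3.43% to 3.97%, paired ones from 0.212% to 0.489%.

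The DMS effect was first tested within each strain. Rates were above all untreated libraries in all 6 treated pre-40S libraries at 100 of the 195 members. The share of all A and C of the transcript that meet this was not computed, so the count is not particular to the interval. By edgeR, on sites with at least 50 reads in every library and at least 10 mutations over the 6, 78 of 84 tested members were called higher in WT and 101 of 124 in mL, at an adjusted p under 0.05, and none lower. Against these stand the 84.3% and 82.7% of all tested sites. Such members reach the mutation minimum mostly through their treated libraries, so these counts do not say how many of the 195 respond. In WT 62 members fell under the depth minimum because of WT untreated replicate 1. The count in WT was 98 of 106 tested members without this library, and it was 37 of 39 with a minimum of 100 reads and 44 of 46 with a minimum of 30 mutations. In mL the latter minimum gave 66 of 74.

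The strain comparison asked whether the mL form of Rrp5 changes reactivity in the particle. With DMS, 1 member, C454, was lower in mL, and no member was called higher. C454 lies 16 nt before the second U3 site and is the most reactive C of the interval. Its rate was 14.5%, 15.4% and 14.9% in the WT libraries and 10.9%, 12.4% and 11.2% in mL, against at most 0.847% without DMS. All 3 mL libraries lay below all 3 WT libraries, before scaling as after it. The fit scales each library to a common median rate, which put C454 at 15.6% ± 2.20 in WT and 10.5% ± 1.02 in mL (SD, n = 3; log2 change -0.55, SE 0.136, edgeR adjusted p = 0.0298). Over all 1124 tested A and C 0.267% were called, and among the members 1 of 86. The other 109 members were not tested: 104 had fewer than 30 mutations over the 6 libraries and 5 (C400, C501, A509, A565 and A605) had a treated rate under 2 times the untreated one. No member was called by DESeq2 (5 with an unadjusted p under 0.05) or by limma (3), where edgeR had 10. Of 19 alternatives 9 called C454, with an adjusted p between 0.0115 and 0.779, and of the 6 fits that left out a library 2 did. It was not called without WT replicate 1 (adjusted p = 0.374), without WT replicate 2 (0.112), without mL replicate 1 (0.0789) or without mL replicate 3 (0.370) (edgeR).

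**Figure D3:**
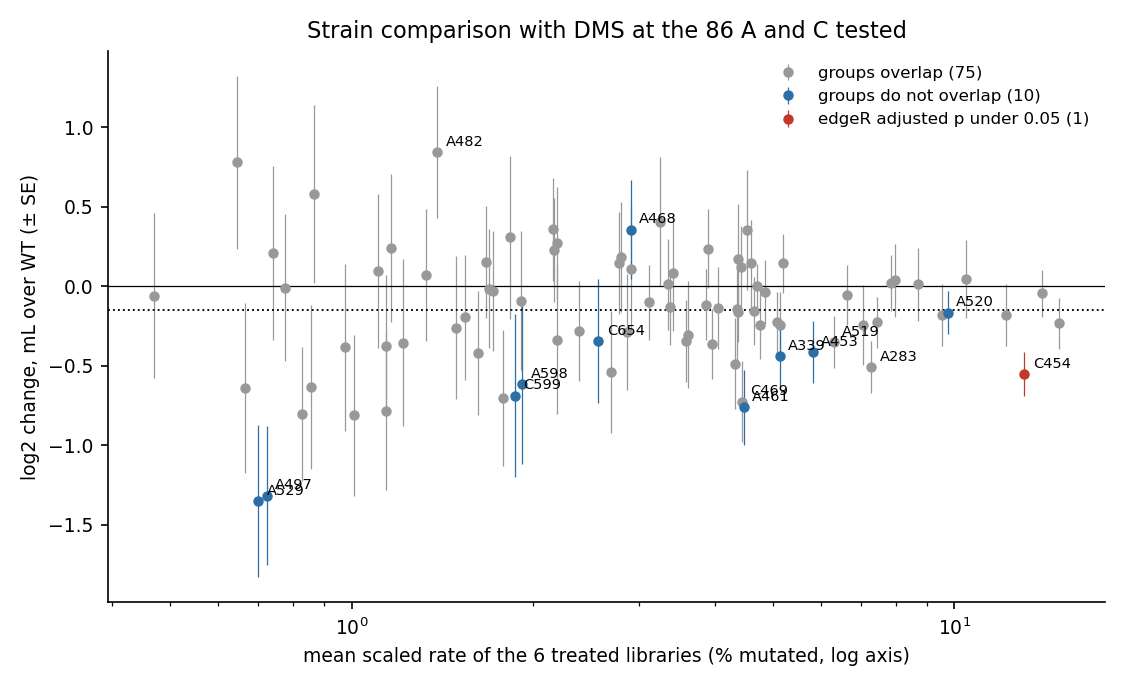
Log2 change of the treated rate, mL over WT, with its SE, against the mean scaled rate (percent of reads mutated, log axis) for the 86 tested members. C454 is the only one past the adjusted threshold, 10 others have groups that do not overlap, and the dotted line is their median of -0.15.

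Around C454 the neighbours were mixed. A461, 7 nt downstream, had 5.02%, 5.78% and 5.51% in WT and 3.09%, 3.29% and 4.46% in mL, with no overlap (log2 change -0.76, SE 0.237, edgeR adjusted p = 0.168). C469, the last base before the second U3 site, had 6.97%, 5.46% and 2.99% in WT and 3.08%, 3.36% and 4.34% in mL, where the strains overlapped (log2 change -0.72, SE 0.254, adjusted p = 0.257). Without WT replicate 3, its lowest WT library, C469 was called with a change of -1.04 (edgeR adjusted p = 0.0147). A453, beside C454, changed by -0.41 (adjusted p = 0.60) without overlap, and A468 by 0.36 (adjusted p = 0.897), the only member higher in mL without overlap. A452, A463, A466 and A467 had changes between 0.01 and 0.24. None of these neighbours passed the test on all 6 libraries.

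Elsewhere A497 and A529, which are weakly reactive, had the largest falls without overlap. A497 had 0.926%, 1.12% and 1.03% in WT and 0.269%, 0.552% and 0.417% in mL (log2 change -1.32, SE 0.439, edgeR adjusted p = 0.252). A529 had 0.774%, 1.11% and 1.05% in WT and 0.439%, 0.357% and 0.495% in mL (log2 change -1.35, SE 0.480, adjusted p = 0.263). The other falls of the 5 largest without overlap were A461, C599 (-0.69, adjusted p = 0.823) and A598 (-0.61, adjusted p = 0.873). None of these passed the test, and C599 and A598 overlapped before scaling. In the U3 sites A283 changed by -0.51 (SE 0.165, adjusted p = 0.218), and 5 of the 6 members of the second site were lower with none called (smallest adjusted p = 0.781). A482, 2 nt past the second site, had the only rise at an unadjusted p under 0.05 (0.85, SE 0.417, adjusted p = 0.60).

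**Figure D4:**
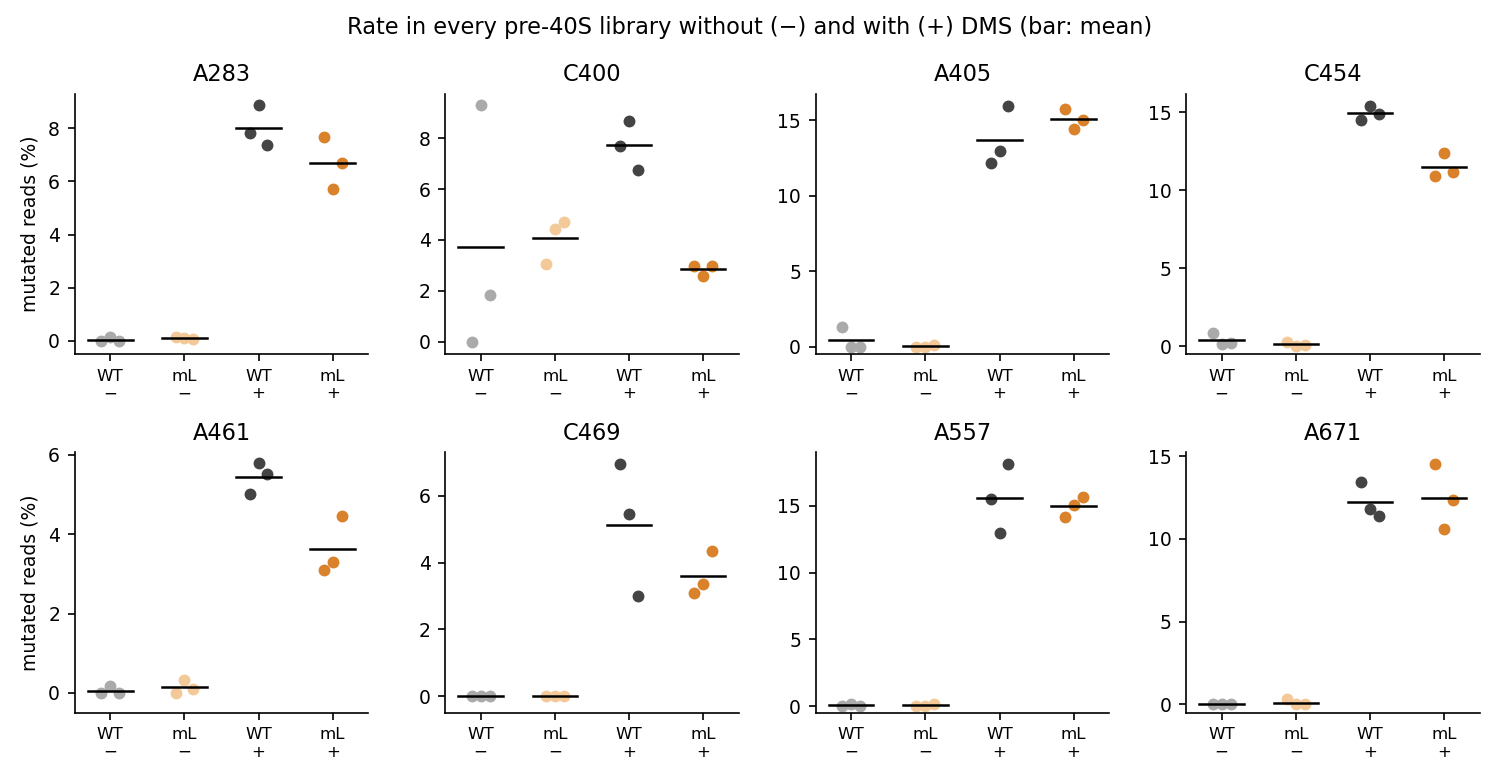
Percent of reads mutated at 8 members in each of the 12 pre-40S libraries, without and with DMS, with the group mean as a bar. C454 and A461 are lower in the 3 treated mL libraries than in the 3 treated WT ones, and A405, A557 and A671 overlap. C400 is as high without DMS as with it in mL, but in WT only in untreated replicate 2.

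As a group, the tested members leaned lower in mL, as did the first part of the 5′ ETS. Of the 86 members 56 were lower, with a median log2 change of -0.15, against -0.0016 over all 1124 sites tested and -0.18 over the 63 tested sites of the first 280 nt (47 lower). At an unadjusted p under 0.05, 9 members were lower and 1 higher. Of all 1124 tested sites 46 were lower (4.09%) and 43 higher. In the first 280 nt 9 of the 63 tested sites were lower and 0 higher, so this imbalance is not particular to the interval. After scaling the groups did not overlap at 11 of 86 members, close to the 12.2% of all tested sites. Before scaling A339, A520, A598, C599 and C654 of these did overlap. Without the library factor the median over all sites moved to 0.20 and that of the members to 0.02 (38 of 86 lower), and with the factor taken from the 5′ ETS itself they were 0.15 and -0.01. Relative to the other sites the members thus lay lower by about as much in each case, while their own direction turned with the scaling. Without WT replicate 1, whose library factor was 0.814 against 0.986 to 1.15 in the others, the median was -0.04. By segment the medians were -0.14 between the U3 sites (50 tested), -0.29 in the second U3 site (6), -0.06 from there to A0 (25) and -0.26 from A0 to A1 (4). Within 20 nt of A0 the direction was the other one, with a median of 0.17 and 5 of 7 tested members higher in mL.

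The same contrast without DMS and the interaction gave no call among the members. Neither could test a member within 20 nt of A0 or from A0 to A1. Of the 213 sites of all bases with enough untreated mutations 2.82% were called, and the 4 members among them, C400, A467, A519 and A565, had adjusted p of at least 0.956 (edgeR, 0 at an unadjusted p under 0.05; DESeq2 and limma also called 0). The strain by DMS interaction was tested at 780 sites, of which 0.641% were called. Of the 70 members tested none was called by edgeR (limma 0). At 4 of them the rise with DMS was smaller in mL at an unadjusted p under 0.05, as it was at 38 of all 780 sites, a similar share. The smallest adjusted p was 0.0763, at A530 (-3.27, SE 0.963), and A530 was called without mL untreated replicate 1 and without WT treated replicate 2. A smaller rise need not be a lower treated rate. A419, another of the 4, had an interaction of -4.05 (SE 1.80), but its treated rate changed by 0.02 (log2). It had no mutation in any WT untreated library. At C454 the interaction was 0.26 (SE 0.966, adjusted p = 1.00), opposite in sign to the treated comparison. Its untreated rate was 0.412% ± 0.379 in WT and 0.137% ± 0.158 in mL (SD, n = 3). The WT mean rests on 0.847% in the shallow WT untreated replicate 1, against 0.164% and 0.223% in the other WT libraries.

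A small set of bases was mutated without DMS and shared a sequence context. Over the 6 untreated pre-40S libraries 7 of the 420 bases of the interval averaged at least 1%. They are shown with 6 bases on each side and the mutated base in capitals, in falling order of their untreated mean.
U615 (609 to 621): aucuucUagcaag
C400 (394 to 406): ucaaauCagcgau
U297 (291 to 303): gauuacUagcuaa
A565 (559 to 571): cugaaaAagcaau
A605 (599 to 611): cucaauAaguauc
U304 (298 to 310): agcuaaUagcaau
A519 (513 to 525): guguaaAagcuuu
The next 3 bases were AGC at 6 of the 7 and AGU at A605. The letters AGC follow 10 of the 420 bases of the interval on this strand, and the other 4, U352, G535, C547 and C585, averaged 0.106% to 0.558% without DMS. Over the transcript AGC follows 1.65% of the 3883 bases with at least 50 reads in each untreated library, and 27.4% of the 95 such bases of at least 1%. This context was noticed in the data, and a match describes the letters only.

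These bases differed in how they split by strain and library. U615, 5 nt past A0, had 18%, 15.6% and 7.94% in treated WT libraries and 2.78%, 5.31% and 3.96% in treated mL. Without DMS it had 4.55%, 21.9% and 2.78% in WT and 5.44%, 8.90% and 10.5% in mL. The treated groups did not overlap and the untreated ones did. C400 had 7.71%, 8.70% and 6.74% in treated WT and 2.98%, 2.58% and 2.96% in treated mL, with 0%, 9.30% and 1.82% and then 3.06%, 4.45% and 4.71% without DMS. U297 had 9.20%, 6.03% and 7.5% in treated WT and 2.93%, 3.54% and 3.20% in treated mL, with 0%, 5.69% and 1.93% and then 1.36%, 6.32% and 2.91% without DMS. At these 3, and at U304 and A605, the treated WT libraries were all above the treated mL libraries, while A565 and A519 overlapped. Without DMS the strains overlapped at C400 and U297 too. WT untreated replicate 1 had only 44 reads at U615, 65 at C400 and 88 at U297, and the untreated overlap at all of them is also seen without it. A fit over all 4 bases without the filter on untreated rates, chosen after seeing the data, called 2.54% of 1301 sites, 31 of its 33 calls lower in mL, and 17 of these 31 precede AGC, as do 62 of the sites tested. Its 5 calls in the interval were U615 (log2 change -1.91, SE 0.343, edgeR adjusted p = 0.000897), C400 (-1.64, SE 0.280, 0.000891), U297 (-1.39, SE 0.255, 0.00107), U499 (-1.47, adjusted p = 0.0432) and C454 (-0.54, adjusted p = 0.0352). Of these C454 alone was not also mutated at 1% or more without DMS or a U, outside the A and C at which DMS is read here, and what produces mutations at the others was not tested.

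Depth described how much of the precursor the interval still represented. In treated libraries the interval was covered at 1.01, 1.18 and 1.54 times the 18S depth in WT and at 1.603, 1.62 and 1.86 times in mL. All 3 mL libraries were above all 3 WT libraries, a ratio of 1.38 between the geometric means, with p = 0.1 by an exact permutation test (two-sided), the lowest p possible for 3 against 3. Against 25S the ratio was 1.24 with overlap (exact p = 0.3), and against the first 280 nt of the 5′ ETS it turned to 0.949 (exact p = 0.2). Without DMS the values were 0.599, 0.0269 and 0.831 in WT and 0.806, 0.956 and 1.15 in mL (ratio 4.04, exact p = 0.2). WT replicate 2 decides this ratio, which was 1.36 without it (exact p = 0.4). In all 6 untreated libraries the first 50 nt of 18S were 5.14 to 445 times as deep as 18S past its first 200 nt, against 0.702 to 0.940 times in the treated ones. With 18S past its first 200 nt as the reference, a choice made after seeing the data, the untreated ratio was 1.33 (exact p = 0.1). Read depth cannot tell more molecules from fragments that were recovered better.

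Inside the interval the depth was lower past A0 than upstream, but most of the fall lay before A0. In 10-nt bins the pre-40S libraries had 114.1 to 2238 reads at -194.5 nt from A1 and 41.9 to 434.5 at -94.5 nt. At -34.5 nt all but WT untreated replicates 1 and 2 were higher again, at 302.8 to 810.8 reads. The stretch from A0 to A1 had 0.433 to 0.665 times the mean depth of the interval in the 12 pre-40S libraries. The 50 nt after A0 had 0.787, 0.755 and 1.26 times the depth of the 50 nt before it in treated WT libraries and 1.12, 1.11 and 1.18 times in treated mL. The groups overlapped, with a ratio of 1.25 (exact p = 0.4), and it was 1.47 without WT replicate 3 (exact p = 0.2). Across A1 the treated pre-40S libraries were level, with 18S at 0.881 to 1.39 times the depth of the last 50 nt of the 5′ ETS. The untreated ones stepped up 7.38 to 45.4 times, and 1268 times in WT replicate 2. In mature ribosomes, where A1 has been cut, the step was 967 to 5566 times.

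**Figure D5:**
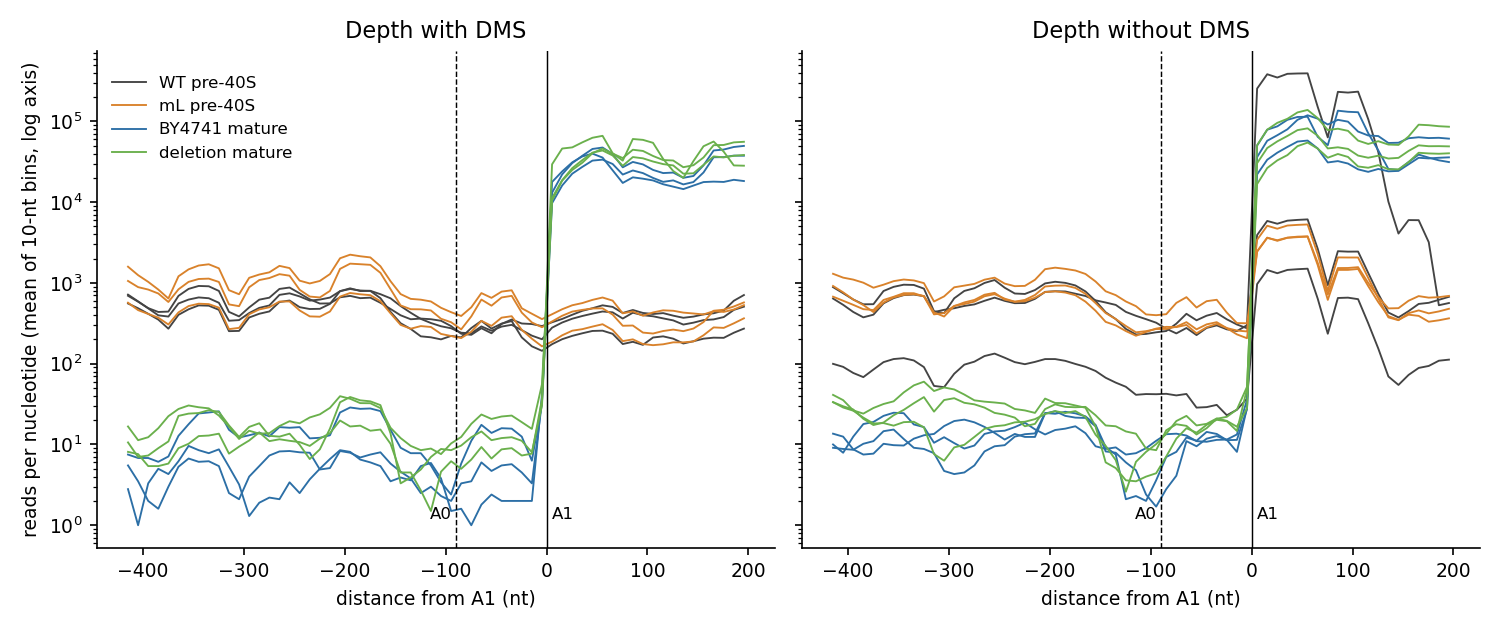
Reads per nucleotide (means of 10-nt bins, log axis) against distance from A1 in nt for all 24 libraries, with DMS on the left and without on the right. Treated pre-40S libraries run level across A1, mature libraries step up at least 967 times, and untreated pre-40S libraries carry extra depth at the start of 18S.

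In mature ribosomes the interval was a trace. With DMS it was covered at 0.0239%, 0.0228% and 0.0507% of the 18S depth in BY4741 and at 0.0761%, 0.0438% and 0.0430% in the deletion strain. The deletion was higher by a ratio of 1.73, with overlap (exact p = 0.3). Without DMS the values were 0.0271%, 0.0305% and 0.0459% against 0.0680%, 0.0436% and 0.0616%, a ratio of 1.69 with overlap (exact p = 0.2). Against the first 280 nt of the 5′ ETS the ratios were 1.16 with DMS and 0.899 without. The A0 to A1 stretch stood at 0.687 to 1.35 times the interval mean in these 12 libraries. In each of them the depth rose just before A1, to 27.5 to 55.6 reads in the bin at -4.5 nt. The bin at -14.5 nt had 2 to 27.1 reads. This last bin raises the A0 to A1 ratios, and it also enters the interval depths given here. Values without it were not computed, so the ratios cannot tell whether the rest of the stretch is depleted in mature libraries.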

How the data were processed

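The deposited profiles give, for each nucleotide of RDN37 and each library, counts of mutations and of reads (effective depth), and their ratio as a fraction that the authors computed. Bowtie2 is named in the submitters' processing notes. Its version, the genome build, mutation counter and filters are all not given in the sources used here. Within 5e-07, each deposited fraction equalled mutations over effective depth, and percentages were computed from the counts. The labels' protocols give single-end reads of 100 nt and describe no molecular identifiers. Region bounds came from feature offsets in the R64 reference table, without chromosome coordinates, and sequences from the profiles.

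Counts were tested with edgeR 4.0.16 (quasi-likelihood, offset log depth, R 4.3.3) over all sites of the transcript that passed the minimums, with Benjamini-Hochberg adjustment and a threshold of 0.05. The treated strain comparison also used a library factor, the median over tested sites of its rate over the geometric mean of the 6 libraries. Depth ratios had exact permutation tests. Structure came from RNAfold 2.7.2. DESeq2 1.42.0 and limma 3.58.1 (log2 rate, 0.5 mutations and 1 read added), other minimums and factors, a replicate block and leaving out libraries were the alternatives. Named sites were the members in the U3 sites and within 10 nt of A0, the 10 highest per strain, each member called, and the 5 largest rises and falls without overlap, and others named were chosen after their values were seen. The members and lists were chosen with earlier results of these data known.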

Additional observations from a re-analysis of the deposited data

Results flagged for a closer look

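DMS marks A and C, so the 225 G and U of the interval lay outside the comparisons. At 3 of them all 6 treated pre-40S libraries were above all 6 untreated ones, as at 100 of the 195 A and C. The shares over the whole transcript were not computed. U370 averaged 0.778% with DMS and 0.0466% without, from 3 to 15 mutations per treated library. G306 averaged 0.320% and 0.0812%, and U442 0.191% and 0%, from 1 to 6 mutations per treated library. C409 drew attention because its DMS effect ran opposite ways in the strains. It rose by 0.252 percentage points with DMS in WT (0.236%, 0.402% and 0.267% against 0%, 0% and 0.150%), and in mL it had 0% in all 3 treated libraries against 0.411%, 0.199% and 0.233% without DMS. Each value rests on at most 2 mutations, and the difference between strains was not tested there.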

How the results depend on the processing

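The members called higher with DMS stayed within 1.5 times of 78 in WT and 101 in mL, except for 37 (WT, depth minimum of 100), 44 (WT, at least 30 mutations) and 66 (mL, at least 30 mutations). No WT member could be tested with a depth minimum of 200. With single libraries left out the counts were 64 to 98 in WT and 90 to 98 in mL. In the treated strain comparison the 1 call became 0 with DESeq2, limma, a minimum of 10 mutations, the replicate block, no library factor and the factor from the 5′ ETS, and 2 without the filter on untreated rates, for A and C alone or for all 4 bases (added after seeing the data); leaving out libraries gave 0 to 2. The changes of C454 and A461 were negative in all 19 alternatives each, from -0.63 to -0.37 and from -0.90 to -0.57. Without DMS no alternative called a member, and for the interaction leaving out libraries gave 0 to 1. Same-numbered treated libraries of WT and mL had deviations correlated at 0.0631, 0.00387 and 0.0597, and differently numbered ones at -0.0743 to 0.0143. Same-numbered untreated and treated libraries were at -0.296, -0.137 and 0.123 in WT. Counting error enters these deviations, so they cannot settle whether the numbers pair libraries. The replicate block called 75 and 94 members for the DMS effect, and 0 in the untreated contrast and the interaction. The depth ratio of the interval reversed against the first part of the 5′ ETS, to 0.949 (treated, mL against WT) and 0.899 (untreated, deletion against BY4741), and the cause was not tested. The depth tests have no p under 0.1 by design. Between A0 and A1, 4 of 36 members had enough mutations to be tested between strains.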
